A study of Mus musculus with 22 samples.

Results

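The step from 8N to 16N-plus in control megakaryocytes covers 6 of the 22 libraries of the series and all 9326 genes of the authors' deposited comparison, which were all used. Megakaryocytes are the bone marrow cells that shed platelets. Both gates were sorted on CD41, a surface integrin of the lineage, and on DNA content from adult C57BL/6 mice: 3 libraries held cells of 16N and above from Cre-negative controls, called 16N-plus here, and 3 held 8N cells from the same kind of controls. The labels do not say whether these controls carry floxed Srsf3 alleles. The same 2 gates from Pf4Cre-Srsf3fl/fl mice, with 3 libraries each, serve as a second ploidy step. In these, Cre under the platelet factor 4 promoter acts on floxed Srsf3 in the megakaryocyte lineage, a promoter that is not fully restricted to that lineage. Cells were pooled for each sample (52k ± 32k, per the labels), and total RNA was sequenced.

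Megakaryocytes mature by endomitosis, repeated rounds of DNA replication in which the cell does not divide. As ploidy rises, the cytoplasm fills with granules, an internal membrane system called the demarcation membrane, and the actin, myosin and tubulin needed to extend proplatelets, the processes from which platelets are released. Platelets have no nucleus and carry RNA and mitochondria taken over from the megakaryocyte.

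The authors' deposited table holds 1 log2 fold change, 1 mean log2 CPM (counts scaled to library size), 1 F score and 1 p-value per gene and no value for any single library, so values by sample cannot be shown and depth per library is unknown. Standard errors (SE) were computed from the deposited fold change and F and follow each log2 fold change after ±. The numerator is not named in the table. The direction was read as 16N-plus minus 8N after the values were seen, from higher platelet genes and lower mitosis and replication genes; with the other reading every sign below turns. The directions of the receptor, alpha granule, tubulin, actomyosin, mitosis and DNA replication lists are therefore not independent evidence. The labels do not say whether samples came from separate animals, so p-values measure the spread between samples, which may be technical. F and p imply 339.5 denominator degrees of freedom, so that spread was shared among genes to a large extent. All edgeR calls and p-values below rest on this shared spread, not on that of each gene alone. A difference is in RNA relative to the rest of the library: in pooled cells, fewer cells of a type and less RNA per cell cannot be told apart.

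Defining genes of the lineage were at high level over the megakaryocyte libraries. The mean log2 CPM is the same in the authors' deposited tables of controls and knockouts, so levels, ranks and abundance bins are not of controls alone. Itga2b, which encodes CD41, ranked number 7 of all genes by mean log2 CPM in the authors' deposited table, at 12.18. The chemokine gene Ppbp was at 9.67, Pf4 (platelet factor 4) at 9.26 and the transcription factor gene Fli1 at 9.20 on the same scale in the authors' deposited table. Of the identity genes, 8 were higher in 16N-plus cells, while Fli1, at a log2 fold change of 0.61 ± 0.28 (adjusted p = 0.21 by edgeR), missed the threshold in the authors' deposited table. Genes that mark other blood cells were present too and are given after the megakaryocyte genes.

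In 16N-plus cells 442 genes were higher and 234 lower than in 8N cells at an adjusted p under 0.05 in the authors' edgeR quasi-likelihood test, which is 7.25% of the genes tested, 4.74% higher and 2.51% lower. At an unadjusted p under 0.05 there were 1661 genes. The rises were larger than the falls. The median log2 fold change was 1.05 among higher genes and -0.90 among lower genes; 258 genes were higher and 63 lower by at least 2-fold, and 26 were higher and 0 lower by at least 4-fold. The median of all genes was not at 0 but at -0.11, and 36.2% of genes were above 0. Centred on that median, the calls split into 638 higher (6.84%) and 135 lower (1.45%), so that 82.5% of calls were higher, against 65.4% as deposited. All 442 higher genes kept their call and 99 lower genes lost it. Below, counts of lower genes after centring stand beside each list's count where they differ.

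**Figure D1:**
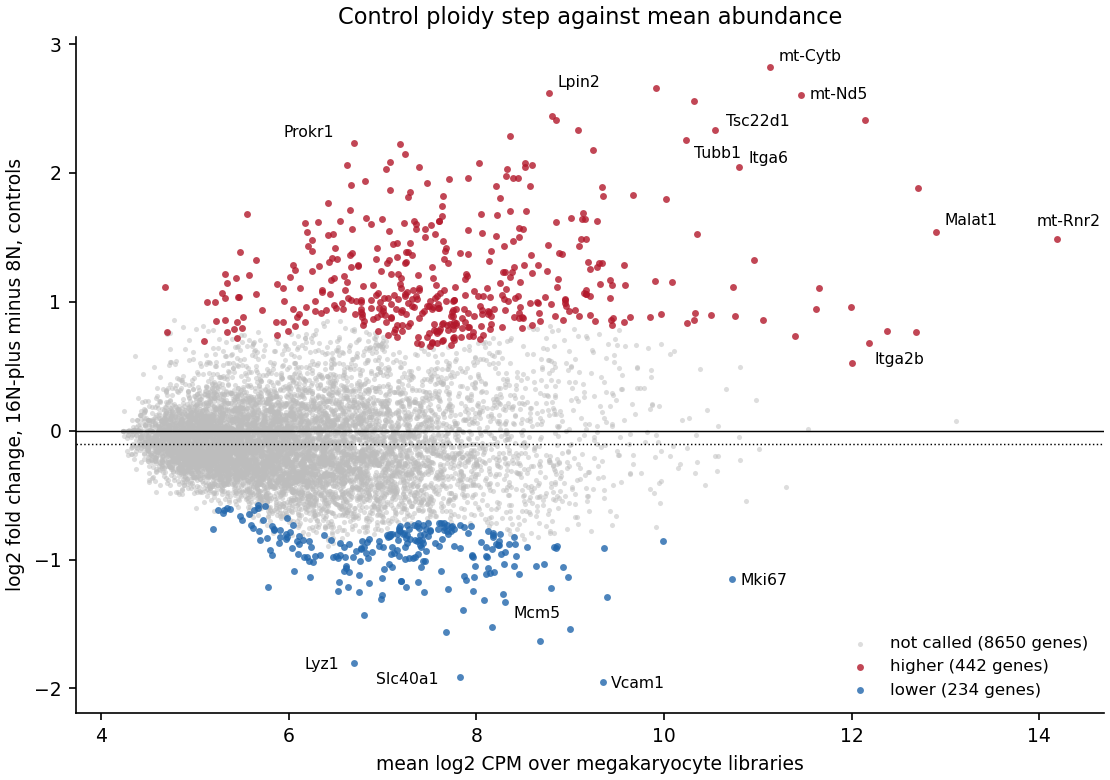
Log2 fold change of each gene in the control ploidy step (16N-plus minus 8N) against its mean log2 CPM, from the authors' deposited table. Points are genes, coloured by call; the solid line is 0 and the dotted line the median of all genes, -0.11. The rises reach 2.82 and the falls -1.95, and called genes thin out towards low abundance.

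Calls were concentrated among abundant genes. Of 5 equal bins of genes by mean log2 CPM, 0.214% were called in the lowest and 22.5% in the highest. In the highest bin, from a mean log2 CPM of 7.19, 15.9% were higher and 6.65% lower. The base for the list counts below is all genes, 4.74% higher and 2.51% lower, which does not hold abundance fixed. The lowest bin, below a mean log2 CPM of 5.18, held 4 higher and 0 lower genes. The median SE was 0.197 in the lowest bin and 0.246 in the highest. The reason for the few calls among scarce genes was not tested.

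RNA of the mitochondrial genome had the largest rises. All 9 list members with a row were higher, of 15 looked up, and the other mitochondrial row of the table, the proline tRNA gene mt-Tp, named after its value was seen, was higher too. The authors' deposited table listed mt-Cytb, the cytochrome b subunit of respiratory complex III, at a log2 fold change of 2.82 ± 0.22 (adjusted p = 1.3e-28 by edgeR), a 7.05-fold difference. The complex I subunit genes mt-Nd1 and mt-Nd5 were at 2.66 ± 0.30 and 2.61 ± 0.18 in the authors' deposited table. The smaller ribosomal RNA mt-Rnr1 was at 2.41 ± 0.12 (adjusted p = 1.6e-53 by edgeR), the smallest p in the authors' deposited table, and the cytochrome oxidase subunit mt-Co1 at 1.89 ± 0.13. The list median was 2.41, against -0.11 over all genes. The 10 rows held 3.33% of the summed mean CPM.

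Nuclear genes for the same organelle gave few calls. Of 67 nuclear subunits of oxidative phosphorylation 0 were called in either direction by the authors' edgeR test, with 3 at an unadjusted p under 0.05, and their median was -0.06. The abundant ATP synthase subunits Atp5b, at -0.31 ± 0.22, and Atp5a1, at -0.20 ± 0.25, missed the threshold in the authors' deposited table. Of 66 mitochondrial ribosomal protein genes 0 were higher and 1 lower (0 after centring), and of 29 TCA cycle genes 0 were called by the authors' edgeR test, with 3 at an unadjusted p under 0.05. In knockout cells mitochondrially encoded genes were higher for 8 of 9, with a median of 1.59. Nuclear copies of mitochondrial sequence can share such reads.

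Nuclear genes among the largest rises had varied roles. Lpin2 (chromosome 17, 71182560 to 71249817, plus strand, GRCm38), a phosphatidate phosphatase that makes diacylglycerol, was listed at 2.62 ± 0.29 (adjusted p = 7.0e-15 by edgeR), a 6.15-fold difference, in the authors' deposited table. The deubiquitinase gene Otud7b was at 2.44 ± 0.29 and the leucine zipper gene Tsc22d1 at 2.33 ± 0.22 in the authors' deposited table. Prokr1, a prokineticin receptor, was at 2.23 ± 0.30, Neb, the giant actin-binding protein nebulin of skeletal muscle, at 2.22 ± 0.22, and the ubiquitin-conjugating enzyme gene Ube2o at 2.18 ± 0.29 in the authors' deposited table. Among the 15 largest rises 7 were mitochondrial and 8 nuclear.

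**Figure D2:**
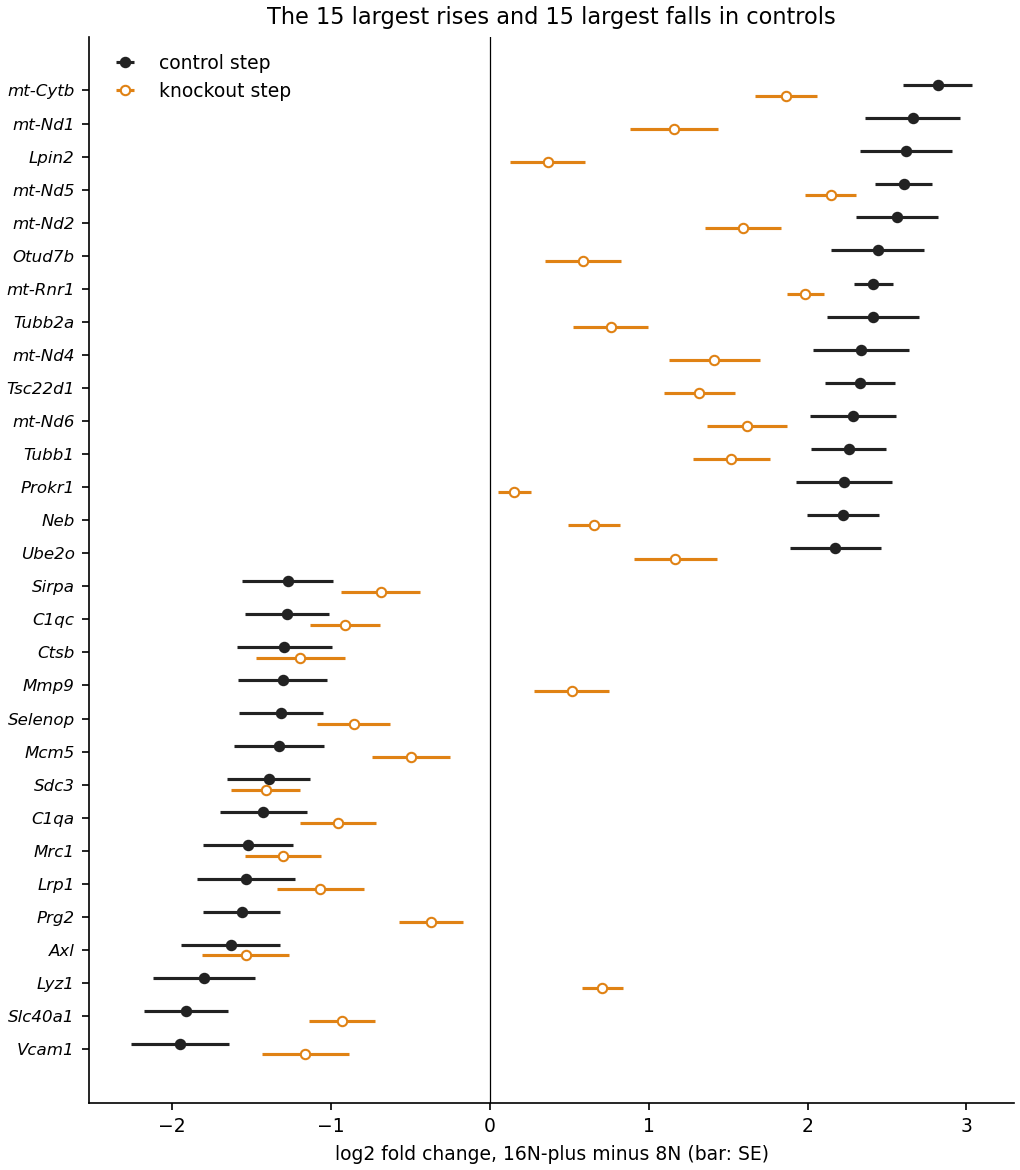
Log2 fold changes (16N-plus minus 8N) of the 15 genes with the largest rises and the 15 with the largest falls among the genes called in controls, from the authors' deposited tables. Filled points are the control step and open points the knockout step, and bars are SEs. The genes were chosen by the control values; Lpin2 stands at 2.62 in controls and 0.36 in knockouts, and Lyz1 at -1.80 and 0.71.

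Promoters of genes at both ends are shown, from RefSeq windows of 250 bases before to 50 after the most upstream listed start on GRCm38.p6, because a few short motifs were counted in them. The higher genes Lpin2 (chr17:71183282-71183581, plus strand), Tubb2a (chr13:34077959-34078258, minus strand), Tsc22d1 (chr14:76414711-76415010, plus strand) and Tubb1 (chr2:174450345-174450644, plus strand) come first, and the lower genes Lyz1 (chr10:117292819-117293118, minus strand), Axl (chr7:25788684-25788983, minus strand), Lrp1 (chr10:127621099-127621398, minus strand) and Mcm5 (chr8:75109259-75109558, plus strand) follow. Tubb1 and Mcm5 were added after their values were seen. Otud7b, Vcam1 and Slc40a1 are named only. Each sequence runs 5′ to 3′ in the direction of transcription, and capitals mark motif matches on either strand.
Lpin2: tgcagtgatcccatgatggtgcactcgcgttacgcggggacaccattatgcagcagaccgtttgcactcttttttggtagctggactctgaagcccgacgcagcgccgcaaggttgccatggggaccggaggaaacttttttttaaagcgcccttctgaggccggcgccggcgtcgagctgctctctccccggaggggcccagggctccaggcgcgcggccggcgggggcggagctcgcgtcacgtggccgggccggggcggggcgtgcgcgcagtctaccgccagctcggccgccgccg
Tubb2a: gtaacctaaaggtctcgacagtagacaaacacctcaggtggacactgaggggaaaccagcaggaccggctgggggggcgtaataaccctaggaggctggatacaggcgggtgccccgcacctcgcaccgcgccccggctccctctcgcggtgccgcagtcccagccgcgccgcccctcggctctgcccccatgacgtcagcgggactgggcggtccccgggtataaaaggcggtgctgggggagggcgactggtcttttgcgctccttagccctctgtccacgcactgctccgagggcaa
Tsc22d1: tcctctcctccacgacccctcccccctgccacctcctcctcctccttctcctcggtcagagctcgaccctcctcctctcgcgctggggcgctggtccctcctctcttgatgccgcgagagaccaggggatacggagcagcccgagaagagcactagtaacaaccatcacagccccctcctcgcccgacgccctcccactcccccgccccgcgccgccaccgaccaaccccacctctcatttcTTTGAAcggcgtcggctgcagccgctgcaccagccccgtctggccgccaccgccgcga
Tubb1: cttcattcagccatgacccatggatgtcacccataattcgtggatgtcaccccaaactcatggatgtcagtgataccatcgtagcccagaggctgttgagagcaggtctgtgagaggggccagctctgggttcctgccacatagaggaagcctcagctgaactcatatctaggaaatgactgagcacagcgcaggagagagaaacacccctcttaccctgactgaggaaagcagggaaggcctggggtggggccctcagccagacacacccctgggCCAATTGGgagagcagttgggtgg
Lyz1: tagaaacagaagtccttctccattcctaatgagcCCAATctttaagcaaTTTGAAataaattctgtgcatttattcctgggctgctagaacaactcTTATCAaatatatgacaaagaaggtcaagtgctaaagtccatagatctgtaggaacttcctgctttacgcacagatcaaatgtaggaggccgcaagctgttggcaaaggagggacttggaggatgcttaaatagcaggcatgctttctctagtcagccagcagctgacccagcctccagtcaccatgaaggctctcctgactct
Axl: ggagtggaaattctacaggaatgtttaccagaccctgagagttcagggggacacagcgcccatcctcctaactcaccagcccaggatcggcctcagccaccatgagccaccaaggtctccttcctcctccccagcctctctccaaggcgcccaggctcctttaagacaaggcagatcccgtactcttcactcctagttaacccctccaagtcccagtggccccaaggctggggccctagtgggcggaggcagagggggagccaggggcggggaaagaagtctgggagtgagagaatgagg
Lrp1: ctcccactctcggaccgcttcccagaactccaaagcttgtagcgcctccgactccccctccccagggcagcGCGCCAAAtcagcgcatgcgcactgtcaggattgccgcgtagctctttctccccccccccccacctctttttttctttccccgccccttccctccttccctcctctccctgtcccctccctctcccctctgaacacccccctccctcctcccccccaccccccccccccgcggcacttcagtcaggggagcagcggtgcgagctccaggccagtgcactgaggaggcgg
Mcm5: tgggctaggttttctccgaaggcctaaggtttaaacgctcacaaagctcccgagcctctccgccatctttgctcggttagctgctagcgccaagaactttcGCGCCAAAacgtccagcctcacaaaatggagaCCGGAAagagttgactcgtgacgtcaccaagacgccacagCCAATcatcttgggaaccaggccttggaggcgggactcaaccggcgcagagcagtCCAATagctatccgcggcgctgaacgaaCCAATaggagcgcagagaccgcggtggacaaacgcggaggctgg

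The capitals in Mcm5 are 1 E2F match, 1 ETS match and 3 NF-Y matches, and that in Lrp1 is 1 E2F match. In Lyz1 they are NF-Y, CHR and GATA matches, in Tubb1 a pair of overlapping NF-Y matches and in Tsc22d1 a CHR match. Lpin2, Tubb2a and Axl hold none of the motifs searched. Both strands were searched. The E2F motif was taken as TTTCCCGC, with TTTGGCGC as its other form. The CHR element of cell cycle promoters was read as TTTGAA. Motifs of blood cell factors were ETS, read as CCGGAA in each window, and RUNX, for which TGTGGT was the only form used. For the GATA factors a window with AGATAA counted, and so did a window with TGATAA in it. The NFE2/AP-1 motif was TGACTCA, and its other form, which has the middle base changed, was TGAGTCA here. For NF-Y the box searched for was CCAAT. Windows were found for 7363 genes, among them 336 higher and 185 lower. E2F letters stood in 1.79% of the promoters of higher genes and in 9.19% of those of lower genes, with 3.46% over all promoters. The CHR letters stood in 9.82% of higher, 16.2% of lower and 11.6% of all promoters. For ETS letters the shares were 18.8% of higher, 27.6% of lower and 31.2% of all, and for GATA letters 10.7%, 7.03% and 9.62%. NFE2/AP-1 letters stood in 5.06% of higher, 3.24% of lower and 3.12% of all promoters. RUNX letters stood in 9.23%, 9.19% and 11.9% and NF-Y letters in 34.2%, 36.8% and 38.6% in the same order. Base composition differed as well: the median GC content was 63.3% in higher, 60% in lower and 61.3% in uncalled genes. These are matches of letters, and no binding was measured.

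Many surface receptor genes of platelets were higher. Of 34 adhesion and agonist receptor genes 17 were higher and 0 lower, beside 4.74% higher among all genes, and the median was 0.79. Itga6, the laminin receptor subunit, was at 2.05 ± 0.20 (adjusted p = 4.9e-18 by edgeR) in the authors' deposited table. The tetraspanin gene Tspan9 was at 2.04 ± 0.21, the collagen receptor gene Gp6 at 1.63 ± 0.21 and Itgb3, the beta subunit of the fibrinogen receptor, at 1.11 ± 0.13 in the authors' deposited table. Itga2b, its alpha subunit, was at 0.68 ± 0.10, and the von Willebrand receptor genes Gp9 and Gp1bb were at 1.02 ± 0.22 and 0.73 ± 0.22 in the authors' deposited table. The tetraspanin Cd9, at 0.78 ± 0.27 (adjusted p = 0.054 by edgeR), and Treml1, a receptor of alpha granule membranes, at 0.48 ± 0.27 (adjusted p = 0.35 by edgeR), missed the threshold in the authors' deposited table.

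Of 26 alpha granule cargo genes 9 were higher and 1 lower, with a median of 0.63. Ppbp, a platelet chemokine, was at 1.83 ± 0.27, Thbs1, a matrix glycoprotein, at 1.32 ± 0.19 and the granule proteoglycan gene Srgn at 1.09 ± 0.22 in the authors' deposited table. Platelet factor 4 (Pf4) was at 0.85 ± 0.28 (adjusted p = 0.039 by edgeR) and Vwf, von Willebrand factor, at 0.52 ± 0.11 in the authors' deposited table. The lower member was Aplp2, an amyloid precursor-like protein, at -0.76 ± 0.24 in the authors' deposited table, named after its value was seen; centring ended its call. Of 25 genes that build granules or load dense granules, 3 (12%) were higher, beside 4.74% among all genes, and 0 lower, with a median of 0.08. They were the serotonin transporter Slc6a4 at 2.07 ± 0.23, and the vesicle proteins Lyst at 1.64 ± 0.29 and Nbeal2 at 1.62 ± 0.28, in the authors' deposited table; Nbeal2 is needed for alpha granules. The vesicle GTPase Rab27b was at 0.74 ± 0.29 (adjusted p = 0.11 by edgeR), short of the threshold, in the authors' deposited table.

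Machinery for secretion was higher in part. Of 24 SNARE and exocytosis genes 5 were higher and 0 lower, with a median of 0.21. The SNARE genes Stx11 and Snap23 were at 1.48 ± 0.21 and 1.23 ± 0.26, and the docking protein genes Sytl4 and Unc13d at 1.11 ± 0.22 and 1.05 ± 0.27, in the authors' deposited table. The SNARE regulator Stxbp2, at -0.25 ± 0.25, missed the threshold in the authors' deposited table. Of 32 coat and tether genes of transport between ER and Golgi, 0 were called in either direction by the authors' edgeR test, with 1 at an unadjusted p under 0.05.

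Genes of the cytoskeleton were higher in part. Of 27 tubulin and microtubule genes 6 were higher and 0 lower, and the median was 0.11. Tubb1, the beta tubulin of the platelet marginal band, was at 2.26 ± 0.24, Tubb2a at 2.41 ± 0.29 and Tubb2b at 1.68 ± 0.26 in the authors' deposited table. Tubb2a and Tubb2b are near-identical neighbours, so reads may be shared between them. The broadly expressed Tubb5 was at -0.33 ± 0.24 and Tubb4b at 0.33 ± 0.26 in the authors' deposited table, and neither passed. Of 30 actomyosin, spectrin and focal adhesion genes 16 were higher and 0 lower, with a median of 0.74. The non-muscle myosin heavy chain Myh9 was at 0.94 ± 0.14, the actin crosslinker Flna, filamin A, at 0.96 ± 0.10, the integrin linker talin Tln1 at 0.78 ± 0.10 and the actin-binding Cald1 at 1.39 ± 0.21 in the authors' deposited table. Of 33 genes of actin assembly and turnover 7 (21.2%) were higher and 0 lower, beside 15.9% higher in the highest abundance bin. Their median mean log2 CPM was 8.25. Among them were the formin Daam1 at 1.14 ± 0.28 and thymosin Tmsb4x at 0.91 ± 0.23 in the authors' deposited table. The formin Diaph1 was at 0.33 ± 0.21 (adjusted p = 0.44 by edgeR) in the authors' deposited table, short of the threshold.

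Among regulators of this cytoskeleton, Arhgef12, an exchange factor coupled to G proteins, was at 1.65 ± 0.29 and the GTPase-activating protein genes Arhgap18 and Arhgap10 were at 1.50 ± 0.27 and 1.34 ± 0.21 in the authors' deposited table. Of 31 genes of the demarcation membrane and membrane shaping 6 (19.4%) were higher and 0 lower. Their median mean log2 CPM was 8.06, and 15.9% of genes in the highest abundance bin were higher. The membrane-bending F-BAR protein gene Pacsin2 was at 1.04 ± 0.22, the receptor phosphatase gene Ptprj at 1.13 ± 0.28 and Plekho2 at 1.36 ± 0.28 in the authors' deposited table. Clathrin heavy chain Cltc was at -0.34 ± 0.27 (adjusted p = 0.56 by edgeR) in the authors' deposited table, short of the threshold.

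Of 42 signalling genes of platelet activation 17 were higher and 0 lower, with a median of 0.55. The direction of this list was not used to set the sign, but it holds platelet genes too, so it is not independent evidence. Rasa3 and Rasgrp2, which switch the GTPase Rap1 off and on, were at 1.52 ± 0.23 and 1.25 ± 0.28 in the authors' deposited table. Rap1b itself was at 0.89 ± 0.20 and the G protein alpha subunit Gnaq at 1.22 ± 0.22 in the authors' deposited table. The kinase Syk did not pass, at 0.08 ± 0.24 (adjusted p = 0.91 by edgeR) in the authors' deposited table. Of 20 eicosanoid and phospholipase genes 3 were higher: the lipoxygenase Alox12 at 1.69 ± 0.28, thromboxane synthase Tbxas1 at 0.88 ± 0.27 and the diacylglycerol kinase Dgkz at 0.88 ± 0.28 in the authors' deposited table. Cyclooxygenase Ptgs1 was at 0.28 ± 0.26, short of the threshold, in the authors' deposited table. Of 35 channel, pump and calcium genes 6 were higher and 1 lower (0 after centring), led by the potassium channel Kcna3 at 1.82 ± 0.21 and the calpain subunit Capn2 at 1.38 ± 0.22 in the authors' deposited table.

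**Figure D3:**
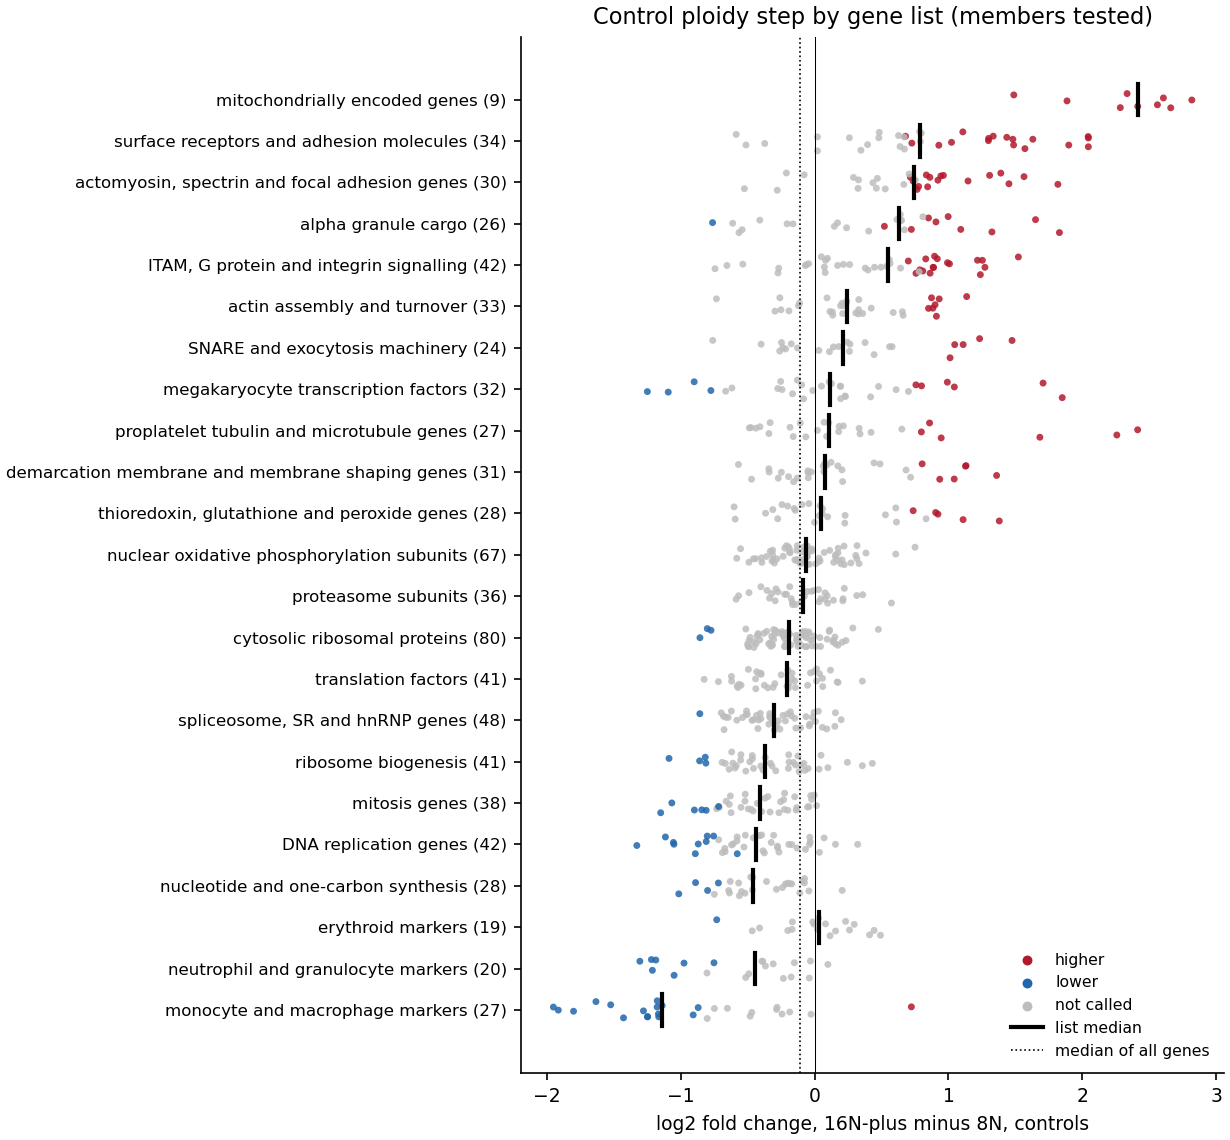
Log2 fold change (16N-plus minus 8N) of each tested member of 23 gene lists in the control ploidy step, from the authors' deposited table. Points are genes coloured by call, thick bars are list medians and the dotted line is the median of all genes, -0.11; the number after each list is its tested members. The mitochondrially encoded list stands highest, with a median of 2.41, and monocyte and macrophage markers lowest, with -1.14.

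Transcription factors of the lineage went both ways. Of 32 genes 6 were higher and 4 lower, and 2 stayed lower after centring. Lyl1, a bHLH factor, was at 1.85 ± 0.22, the forkhead factor Foxo3 at 1.71 ± 0.27 and Gata2 at 1.04 ± 0.23 in the authors' deposited table. The late factors Nfe2 and Gata1 were at 0.99 ± 0.28 and 0.80 ± 0.22 in the authors' deposited table. Myb, a factor of progenitors, was at -1.25 ± 0.30 (adjusted p = 0.0016 by edgeR) in the authors' deposited table. The Gata1 cofactor Zfpm1 was at 0.13 ± 0.28 (adjusted p = 0.87 by edgeR), short of the threshold, in the authors' deposited table. Of 28 genes of thrombopoietin, JAK-STAT and RAS signalling 4 (14.3%) were higher, beside 4.74% among all genes, and 0 lower. The higher ones include inhibitors of that pathway: the adaptor Sh2b3 was at 1.57 ± 0.21, Spry1 at 1.56 ± 0.30 and the ubiquitin ligase Cbl at 1.04 ± 0.24 in the authors' deposited table. Of 21 immediate early genes 1 was higher, a share near the 4.74% of all genes: Klf6 at 1.51 ± 0.25 in the authors' deposited table. Of 36 chromatin modifiers 0 were called by the authors' edgeR test, with 8 at an unadjusted p under 0.05.

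DNA replication genes were lower in part in 16N-plus cells. Of 42 genes 10 were lower and 0 higher, beside 2.51% lower among all genes, and 7 stayed lower after centring; the median was -0.44. Mcm5, a subunit of the MCM helicase that unwinds DNA at forks, was at -1.33 ± 0.28 (adjusted p = 0.00018 by edgeR) in the authors' deposited table, and its partners Mcm2 and Mcm7 were at -1.11 ± 0.29 and -1.05 ± 0.26. Lig1, the ligase that joins lagging strand fragments, was at -1.05 ± 0.24 in the authors' deposited table. Of the 6 subunits of the helicase ring, taken as a family after the values were seen, 5 were lower, and 5 also after centring; Mcm6 was at -0.72 ± 0.27 (adjusted p = 0.087 by edgeR) in the authors' deposited table. Enzymes of nucleotide and one-carbon synthesis were lower for 4 of 28 and higher for 0, with a median of -0.46, and 2 stayed lower after centring. The purine enzyme Gart was at -1.01 ± 0.25 and Cad, which starts pyrimidine synthesis, at -0.89 ± 0.27 in the authors' deposited table. Of 36 replication-dependent histone genes with a row 0 were called by the authors' edgeR test, with 3 at an unadjusted p under 0.05.

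Of 38 mitosis genes 6 were lower and 0 higher, with a median of -0.41, and 3 stayed lower after centring. Mki67, a coat protein of mitotic chromosomes used as a proliferation marker, was at -1.15 ± 0.22 (adjusted p = 3.1e-05 by edgeR), the centromere protein gene Cenpf at -1.07 ± 0.27 and the checkpoint kinase gene Bub1b at -0.84 ± 0.24 in the authors' deposited table. Top2a, the topoisomerase of chromosome segregation, was at -0.73 ± 0.29 (adjusted p = 0.11 by edgeR) in the authors' deposited table, short of the threshold. Of 27 cytokinesis genes 0 were higher and 1 lower (0 after centring), a share near that of all genes: Racgap1, a subunit of the centralspindlin complex, at -0.81 ± 0.25 in the authors' deposited table. Among 31 cyclins, CDKs, inhibitors and E2F genes 1 was called, a share of 3.23% higher beside 4.74% among all genes. It was Mxd1, a repressor that competes with MYC for MAX, at 1.01 ± 0.22 in the authors' deposited table. Of 32 genes of DNA damage and repair 0 were higher and 1 lower (0 after centring), likewise near the share of all genes. The lower one was the mismatch repair gene Msh6 at -0.74 ± 0.25 in the authors' deposited table.

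Of 41 ribosome biogenesis genes 4 were lower and 0 higher, with a median of -0.37, and 1 stayed lower after centring. Heatr1, a processing factor of ribosomal RNA, was at -1.09 ± 0.25 and the box C/D protein gene Nop58 at -0.82 ± 0.25 in the authors' deposited table. Among 80 genes of cytosolic ribosomal proteins, 3 were lower (1 after centring) and 0 were higher, a share near the 2.51% of all genes, with a median of -0.19 in controls and -0.54 in knockouts, where 19 were lower. Rpl10a was at -0.86 ± 0.24 and the abundant Rplp0 at -0.22 ± 0.21 in the authors' deposited table, the second without passing; processed pseudogenes can share such reads. Of 48 spliceosome genes 0 were higher and 1 lower (0 after centring), again near the share of all genes. The lower one was Prpf8 of the spliceosome core at -0.86 ± 0.27 in the authors' deposited table. Translation factors (41) and proteasome subunits (36) had 0 calls in the authors' edgeR test, with 7 and 3 at an unadjusted p under 0.05.

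Of 30 glycolysis and pentose phosphate genes 2 were higher and 1 lower, shares near the 4.74% higher and 2.51% lower of all genes. The glucose transporter Slc2a3 was at 1.89 ± 0.28 and the pentose phosphate enzyme Taldo1 at 1.11 ± 0.28, while the lactate transporter Slc16a1 was at -1.01 ± 0.29, in the authors' deposited table. Lactate dehydrogenase Ldha was at 0.05 ± 0.28, not past the threshold, in the authors' deposited table. Of 28 thioredoxin, glutathione and peroxide genes 5 were higher and 0 lower, among them Srxn1, sulfiredoxin, at 1.38 ± 0.31 and the glutathione synthesis subunit Gclm at 1.11 ± 0.22 in the authors' deposited table. Among 24 BCL2 family and caspase genes 3 (12.5%) were higher, beside 4.74% among all genes. They include both the pro-death Bbc3 at 1.60 ± 0.27 and the pro-survival Bcl2l1, which encodes BCL-XL, at 0.79 ± 0.22 in the authors' deposited table. The sterol sensor Scap was at -0.86 ± 0.27 in the authors' deposited table, a call that centring ended.

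Nuclear noncoding genes were called higher at a share close to that of coding genes: 10 of 251 (3.98%), against 422 of 9039 (4.67%). The median mean log2 CPM was 4.92 in these noncoding genes and 6.07 in the coding genes. The first value falls in the lowest abundance bin, where 4 of 1866 genes (0.214%) were higher and 0 lower. These shares are therefore not compared at like abundance. None of the noncoding genes was lower, as was none of the genes in that bin. Malat1, an abundant RNA of nuclear speckles, was at 1.54 ± 0.15 (adjusted p = 7.7e-20 by edgeR), Neat1, the scaffold of paraspeckles, at 1.79 ± 0.26, and Rpph1, the RNA of ribonuclease P, at 1.29 ± 0.28 in the authors' deposited table. Malat1 ranked number 3 by mean log2 CPM in the authors' deposited table.

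Genes that mark other blood cells moved in the same comparison, mostly down. Of 27 monocyte and macrophage markers 16 were lower (15 after centring) and 1 higher, with a median of -1.14 and fold changes between -1.95 and 0.72; the higher one, F13a1, is also platelet cargo. Vcam1, an adhesion molecule of marrow macrophages and stroma, was at -1.95 ± 0.31 (adjusted p = 6.9e-08 by edgeR), the iron exporter Slc40a1 at -1.91 ± 0.26 and the mannose receptor Mrc1 at -1.52 ± 0.28 in the authors' deposited table. The complement genes C1qa and C1qc were at -1.43 ± 0.27 and -1.28 ± 0.27, and the receptor Axl, which binds dying cells through a bridging protein, at -1.63 ± 0.31, in the authors' deposited table. Lyz2 was at -0.24 ± 0.24 (adjusted p = 0.66 by edgeR) without passing, although its near-identical copy Lyz1 was at -1.80 ± 0.32, in the authors' deposited table. Of the 15 largest falls, 7 are members of this list. The mean log2 CPM of the 27 markers lay between 4.60 and 10.36, in a table that lists no gene below 4.23.

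Neutrophil and granulocyte markers were lower for 7 of 20 tested (6 after centring), of 26 looked up, with a median of -0.44. The gelatinase Mmp9 was at -1.31 ± 0.28, the chitinase-like Chil3 at -1.21 ± 0.26 and the azurophil enzyme Mpo at -1.19 ± 0.30 in the authors' deposited table. Of 11 eosinophil, basophil and mast cell markers 4 were lower, with the eosinophil granule protein Prg2 at -1.56 ± 0.24 in the authors' deposited table. Erythroid markers (19) were higher for 0 and lower for 1 (0 after centring), Car2. B cell and plasma cell markers (10) and T cell and NK cell markers (8) had 0 calls in the authors' edgeR test, with 1 and 0 at an unadjusted p under 0.05. Of 36 lysosome genes 4 were lower (3 after centring) and 2 higher, with a median of -0.20. The cathepsins Ctsb, at -1.29 ± 0.30, and Ctss, itself also on the macrophage list, at -1.14 ± 0.27, were among the lower ones in the authors' deposited table. The part these cells play in the other falls was not tested. Without the genes of the other-cell lists, and with p-values adjusted again over the rest, 196 genes were lower and 431 higher. Part of the drop is therefore a change of threshold.

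Higher genes ranked high in platelets, a direction that is not independent because platelet genes served to set the sign. The platelet table gives 1 mean normalised count over 10 libraries of wild type, control and knockout mice, made by another assay, so it serves only to rank genes. That mean had a median of 1875 among 398 higher genes with a row, 38.2 among 217 lower genes and 76.0 among all 8402. It reached 1000 in 61.6% of higher genes, 3.69% of lower genes and 11.7% of all. Of 10 equal bins of genes by that mean, the highest had 27.3% higher and 0.713% lower genes, and the lowest 0.951% higher and 3.33% lower. Abundance in megakaryocytes was not held fixed across these bins.

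**Figure D4:**
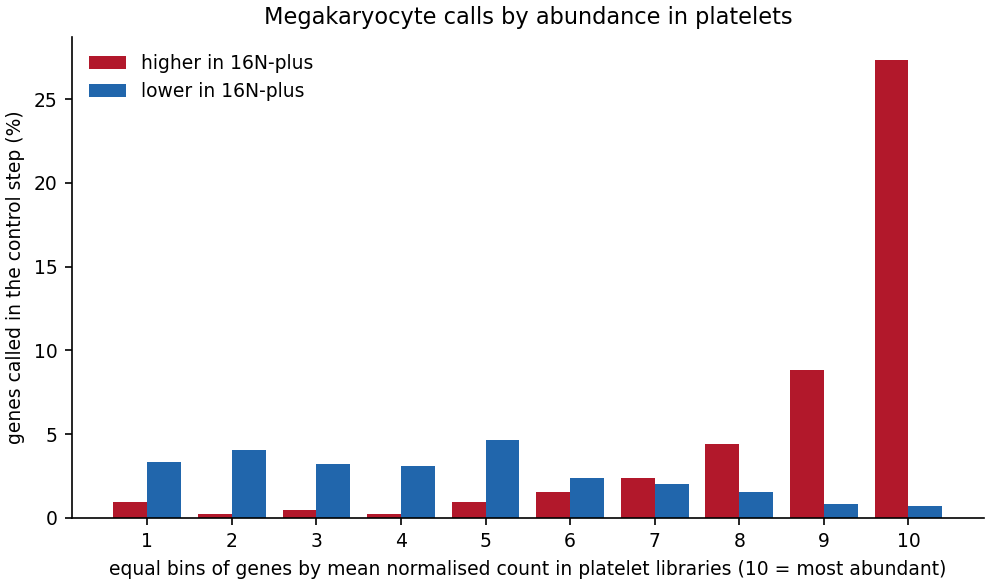
Share of genes called in the control ploidy step (%) in each of 10 equal bins of 8402 genes ordered by their mean normalised count in 10 platelet libraries, bin 10 being the most abundant. Red bars are genes higher in 16N-plus cells and blue bars genes lower; the red bar reaches 27.3% in bin 10, and the blue bars run between 0.713% and 4.64%.

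The ploidy step of knockout megakaryocytes, which shares no library with that of controls, went mostly the same way. In knockouts 309 genes were called (3.31%), 196 higher (2.1%) and 113 lower (1.21%). Of the 442 genes higher in controls, 402 were above 0 in the knockout step, 126 were called higher there and 0 lower, and their median was 1.05 in controls and 0.47 in knockouts. Of the 234 genes lower in controls, 194 were below 0 in the knockout step, 34 were called lower and 2 higher, and their median was -0.90 in controls and -0.31 in knockouts. The genes were chosen by their control values, so their medians are a description, and a smaller median in knockouts does not show a smaller step. Over lists the order varied: actin assembly genes had a median of 0.24 in controls and 0.29 in knockouts. The share of all genes with the same sign in both steps was 64.6%.

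Ppbp, at 1.83 ± 0.27 in the control step and 1.87 ± 0.26 in the knockout step, and Axl, at -1.63 ± 0.31 and -1.54 ± 0.27, had near-equal values in the authors' deposited tables. The difference between the steps was -0.04 ± 0.37 for Ppbp and -0.10 ± 0.41 for Axl. For Tubb1, at 2.26 ± 0.24 in the control step and 1.52 ± 0.24 in the knockout step of the authors' deposited tables, the difference of 0.74 ± 0.34 (adjusted p = 0.54 on the authors' edgeR values) did not pass.

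The test of the difference between steps, a normal approximation on the authors' edgeR values with Benjamini-Hochberg adjustment, called 68 of 9298 genes (0.731%). The difference was positive, control step minus knockout step, for 51 and negative for 17. This count rests on the pooled spread of the deposited fit: with 8 degrees of freedom 0 genes passed the adjustment, and 400 had an unadjusted p under 0.05, against 700 with the normal approximation. The metalloproteinase gene Mmp19 was at 2.15 ± 0.22 in the control step and 0.23 ± 0.11 in the knockout step of the authors' deposited tables, a difference of 1.91 ± 0.24 (adjusted p = 3.2e-11). Lpin2, at 2.62 in the control step, was at 0.36 ± 0.24 in the knockout step of the authors' deposited tables, and Prokr1, at 2.23, was at 0.15 ± 0.10. Birc2, an inhibitor of apoptosis, was at 1.96 ± 0.21 in the control step and 0.29 ± 0.18 in the knockout step of the authors' deposited tables, and the nuclear receptor corepressor Nrip1 at 1.57 ± 0.22 and -0.14 ± 0.21. Gata2 was at 1.04 ± 0.23 in the control step and -0.41 ± 0.21 in the knockout step of the authors' deposited tables, a difference of 1.45 ± 0.32 (adjusted p = 0.0016).

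Some myeloid markers and the intelectin gene Itln1 differed in the negative direction. Lyz1 was at -1.80 ± 0.32 in the control step and 0.71 ± 0.13 in the knockout step of the authors' deposited tables, a difference of -2.51 ± 0.35 (adjusted p = 2.5e-09). Itln1 was at -1.21 ± 0.26 in the control step and 0.46 ± 0.14 in the knockout step of the authors' deposited tables. Of the 11 eosinophil, basophil and mast cell markers 1 differed between steps. Among the 20 neutrophil markers 5 differed between steps, and their median was -0.44 in controls and 0.28 in knockouts. Macrophage markers had a median of -1.14 in controls and -0.38 in knockouts, with 10 lower and 3 higher in knockouts, and 2 differed between steps. Such differences were not confined to myeloid lists. Of 10 B cell and plasma cell markers 2 differed between steps, and 3 were higher and 0 lower in knockouts. Of 8 T cell and NK cell markers 2 differed, and 0 were higher and 3 lower in knockouts. The median SE of these 8 markers in controls was 0.09, against 0.25 over genes with F above 0.5. Their 2 differences are therefore not relied on. The T cell factor Tcf7 was among the genes called, but its SE in controls was 0.02, far under both medians, so that value is not relied on.

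**Figure D5:**
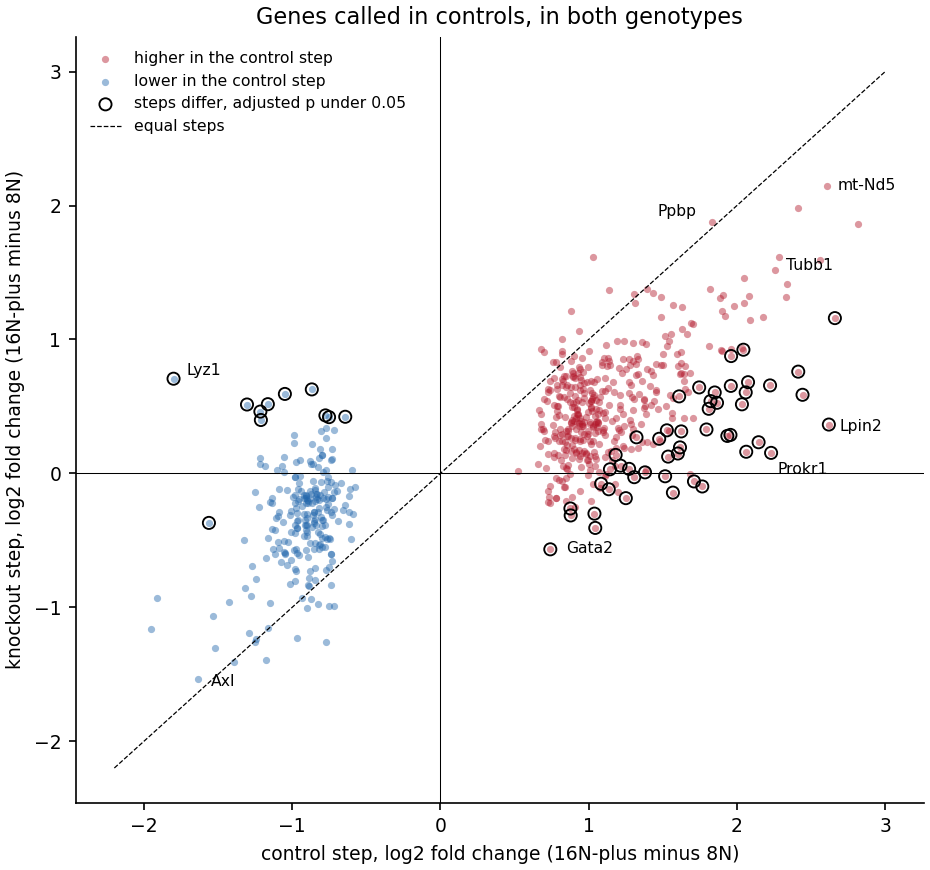
Log2 fold change (16N-plus minus 8N) of the 676 genes called in controls, with the control step on the x axis and the knockout step on the y axis, from the authors' deposited tables. Red and blue mark genes higher and lower in controls, circles mark genes whose steps differ at an adjusted p under 0.05, and the dashed line is equality. Of the 442 higher genes 402 lie above 0 in knockouts, and Lyz1, lower in controls, lies above 0 there.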

How the data were processed

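RNA of 12 megakaryocyte libraries was compared in the authors' deposited tables, and 10 platelet libraries in another. Per the file headers, each megakaryocyte table holds the columns of edgeR's quasi-likelihood output: per gene a log2 fold change, the average log2 CPM, F as a test score, a p-value and its adjusted value, but nothing per library. The submitters' processing notes name Trimmomatic, STAR, Picard, Subread, featureCounts, edgeR, DESeq2 and mm10, without versions or roles; parameters are not given in the sources used here. The lowest mean log2 CPM was 4.23, so scarce genes are not covered. Platelet values are the authors' deposited signal, a mean normalised count pooled over all platelet libraries, used only to rank genes.

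Genes were called at the deposited adjusted p under 0.05. SEs were taken as |log2 fold change| divided by the square root of F; it is unreliable where F is near 0, and genes with no usable SE were left out of tests that need it. F and p imply 339.5 denominator degrees of freedom, which means that variance was shared among genes to a large extent. The difference between the control and knockout steps was tested by a normal approximation, with Benjamini-Hochberg adjusted p-values over 9298 genes. Whether the approximation holds for these libraries was not tested. Genes, lists (59, with 1749 of 1984 members tested) and comparisons were chosen with earlier results of these data known. The genes named are the 15 largest rises and falls, in each list up to 4 called genes with the smallest p and up to 2 uncalled ones of highest abundance, the 8 with the smallest p for the difference between steps, and identity genes; others are said to be added, and a few results are not reported here. Symbols matched the GRCm38 annotation for 9300 of 9326 IDs. Alternatives were a stricter adjusted p, Bonferroni, a minimum fold, an abundance filter, marker or mitochondrial genes left out, and centring. Python 3.11.15, scipy 1.17.1 and pandas 2.3.3 were used.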

Additional observations from a re-analysis of the deposited data

Results flagged for a closer look

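The step from 8N to 16N-plus differed between control and knockout megakaryocytes for 26 of the genes named here, by the test on the authors' edgeR values; each difference is control step minus knockout step on the log2 scale, with its SE after ±. With 8 degrees of freedom none of them passed the adjustment, so this rests on the pooled spread. The genes named were chosen in part by their control values and by a small p in this same test. The 26 are therefore a selected set, and their number does not show how common such differences are. Over all genes tested, 68 of 9298 (0.731%) were called.

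Genes with the larger rise in controls, by difference, began with Lpin2 at 2.26 ± 0.37, Prokr1 at 2.08 ± 0.32, Mmp19 at 1.91 ± 0.24 and Otud7b at 1.86 ± 0.38. Nrip1 differed by 1.71 ± 0.30, Birc2 by 1.67 ± 0.28, Tubb2a by 1.65 ± 0.37 and Neb by 1.57 ± 0.28. Among genes of platelet function, the serotonin transporter Slc6a4 differed by 1.39 ± 0.29, the potassium channel Kcna3 by 1.28 ± 0.28, the SNARE gene Stx11 by 1.22 ± 0.28 and the tetraspanin Tspan9 by 1.12 ± 0.26. Among regulators, Gata2 differed by 1.45 ± 0.32, Max by 1.34 ± 0.28 and Lyl1 by 1.25 ± 0.29. Neat1 differed by 1.47 ± 0.35, mt-Nd1 by 1.50 ± 0.41 and sulfiredoxin Srxn1 by 1.37 ± 0.31. The interferon genes Ifit2 and Ifit1 differed by 1.54 ± 0.35 and 1.05 ± 0.29.

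Some myeloid genes gave negative differences: Lyz1 -2.51 ± 0.35, Mmp9 -1.82 ± 0.37, Chil3 -1.61 ± 0.33 and Prg2 -1.19 ± 0.32. The intelectin gene Itln1 did too, at -1.68 ± 0.30. Tcf7 differed by 1.29 ± 0.22, almost all of it from the knockout step. With the SE raised to the median SE where it was smaller, an alternative chosen after seeing the data, Tspan9 (adjusted p = 0.10), Ifit1 (adjusted p = 0.16) and Prg2 (adjusted p = 0.052) lost their calls in this test on the authors' edgeR values. Causes were not tested.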

How the results depend on the processing

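No paired analysis was possible because the deposited tables hold no value per library; leaving out each replicate could not be run for the same reason. As deposited, 676 genes were called, 442 higher and 234 lower. At an adjusted p under 0.01 there were 405, of which 84 were lower; at a log2 fold change of at least 1 in size 321, 258 higher and 63 lower; with Bonferroni 193, 172 higher and 21 lower. These are stricter rules on the same values. Centred on the median gene, 135 genes were lower; with the SE also raised to the median SE where it was smaller, chosen after seeing the data, 113 were lower and 521 higher. Of the 196 calls new on centring, 58 had an F under 0.5, where the SE is unreliable. The abundance filter and leaving out other-cell markers or mitochondrial genes, with p-values adjusted again over the genes kept, left the counts within 1.5 times. Of 151 genes named, centring ended 9 calls and made 2, Cd9 and Rab27b; Tcf7 reversed to 0.082 against -0.024. It changed the sign of 15 of 59 list medians. The difference between steps was called for 68 genes, for 0 with 8 degrees of freedom, for 69 among genes with F above 0.5 and for 49 with the SE raised, 48 of them among the 68.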

Other observations

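Some families were picked out after their values were seen, so their counts are a description. Of 17 nucleoporin genes tested 5 were lower in 16N-plus cells and 0 higher, with a median of -0.39, and 3 stayed lower after centring; Nup153, of the nuclear basket, was at -1.16 ± 0.25 in the authors' deposited table. Of 11 genes of the Smc, Stag, Pds5 and Rad21 families, the rings that hold chromosomes together and their partners, 5 were lower and 0 higher, but 1 stayed lower after centring. Among 10 genes of the MAX network, partners of MYC, 3 were higher and 0 lower: Mxi1 at 1.55 ± 0.24, Max at 1.31 ± 0.22 and Mxd1 at 1.01 ± 0.22 in the authors' deposited table. The receptor genes Notch2 and Notch1 were at -1.03 ± 0.28 and -0.88 ± 0.27 in the authors' deposited table; centring ended the call of the second. Of 3 runt factor (Runx) genes tested 2 were lower, Runx3 and Runx2, and 0 higher, and the highest value was 0.19. After centring 1 stayed lower. Runx3 was at -1.09 ± 0.31 in the authors' deposited table.

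Several further lists gave calls, beside 4.74% higher and 2.51% lower among all genes. The shares called higher in the interferon, lipid, Rab and glycosylation lists were near that of all genes. Of 17 stem and progenitor markers 3 were higher and 3 lower (2 after centring): Slamf1, which encodes CD150, was at 1.38 ± 0.22, and Kit, the stem cell factor receptor, at -0.98 ± 0.28, in the authors' deposited table. Of 17 endothelial and stromal markers 2 were higher and 2 lower (1 after centring), with the adhesion molecule Pecam1, which platelets also carry, at 1.49 ± 0.28 and the collagen gene Col1a1 at -0.97 ± 0.28 in the authors' deposited table. Of 29 interferon response genes 2 were higher and 0 lower. The higher ones were the tetratricopeptide genes Ifit2 at 1.52 ± 0.31 and Ifit1 at 1.32 ± 0.26 in the authors' deposited table. Of 35 lipid genes 2 were higher and 1 lower (0 after centring), including Cds2, which makes CDP-diacylglycerol, at 1.19 ± 0.26 in the authors' deposited table. Of 31 Rab genes 1 was higher, Rab8b at 1.16 ± 0.27 in the authors' deposited table. Of 28 glycosylation genes the branching enzyme Mgat5 was lower, at -1.05 ± 0.28, and the sialic acid enzyme Cmas higher, at 0.68 ± 0.22, in the authors' deposited table. In 5 equal bins of genes by longest transcript, 10.5% were called in the bin of the longest and 4.87% in that of the shortest; abundance differed between these bins as well.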
